A study of Mus musculus with 11 samples.

Results

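The genes described here encode the enzymes that make cholesterol and fatty acids, the proteins that switch those enzymes on and off, and a carrier that moves sterol inside the cell. The set was a list of 33 gene symbols, taken by name from the 22068 symbols measured; the rule uses no measured value. All 33 were found, Sc4mol under that older name of Msmo1. Of these, 31 reached a mean of 1 RPKM (reads scaled to transcript length and to the number of mapped reads) over the 11 libraries and were tested, among 10557 genes in all. Hmgcs1, which condenses acetoacetyl-CoA with acetyl-CoA, was listed at 0 in every library, so nothing is said of its level. Elovl6, which lengthens saturated fatty acids, was measured at 0.49 to 1.18 RPKM and was not tested.

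The samples were tumour-infiltrating myeloid cells of mice on a C57BL/6 background, isolated with an antibody to the surface integrin CD11b and magnetic beads and profiled by RNA sequencing. Every tumour had grown under the skin, had received 15 Gy of local radiation and was taken on day 4, so no group was left unirradiated. Wild-type hosts gave 3 libraries (WT), TLR9-/- hosts lacking the endosomal DNA sensor TLR9 gave 4 (TLR9KO), and hosts of the MxCre/Stat3flox cross, labelled STAT3-/-, gave 4 (STAT3KO). The Mx promoter that drives Cre in that cross responds to interferon and is not restricted to myeloid cells, and the labels do not say whether libraries of a group came from separate animals, so p-values measure only the spread between these libraries, which may be technical.

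Cholesterol is built from acetyl-CoA by way of mevalonate, isoprenoids, squalene and lanosterol, while fatty acids are built from malonyl-CoA and are then desaturated and elongated. Both routes are switched on by the membrane-bound transcription factors SREBP-1 and SREBP-2 (genes Srebf1 and Srebf2), which are carried by SCAP to the Golgi for cleavage when sterol is low and held in the endoplasmic reticulum by INSIG proteins when sterol is high. Macrophages use these lipids for their membranes, and the sterol intermediates that build up in them can act on the liver X receptors, which drive cholesterol export.

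The target genes were lower in the libraries labelled for them. Stat3 was measured at 15.7 to 19.7 RPKM in STAT3KO, against 70.7 to 76.1 in WT and 58.5 to 68.8 in TLR9KO. Tlr9 was measured at 3.53 to 7.70 RPKM in TLR9KO, against 20.5 to 41.6 in WT and 19.2 to 61.1 in STAT3KO. All 7 general myeloid markers were present in every library. They summed to 4236 to 5584 RPKM in WT, 5177 to 7574 in TLR9KO and 6883 to 9403 in STAT3KO. Without the most abundant, Lyz2, the sums were 2310 to 2491, 2102 to 2440 and 2639 to 2976 RPKM in the same order. Single markers moved in both directions: Itgam, the gene of CD11b, had means of 301, 242 and 218 RPKM, and Cd68 of 1026, 884 and 1391. The part of these differences in the values of the set was not tested. The steps between the values of microRNA genes put the depth at 30.0 to 53.5 M mapped reads per library, at which 1 RPKM in a 2 kb transcript is 60 to 107 reads. A correction for GC content and length that touches many results is given beside those of members and not for the other lipid genes. Transcript GC content went with the difference between TLR9KO and WT across genes (Spearman rho -0.545 over 10439 genes, which are not independent replicates) and less with the difference between STAT3KO and WT (rho -0.226). For transcript length, rho was -0.195 between TLR9KO and WT and -0.336 between STAT3KO and WT. Between STAT3KO and TLR9KO, rho was 0.317 for GC content and -0.27 for length.

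Compared with WT, STAT3KO libraries held less transcript of 13 of the 31 tested members and more of none (limma on log2(RPKM + 1), Benjamini-Hochberg adjusted p under 0.05 over all genes tested). Over all genes tested, 14.8% passed as lower and 29.2% as higher. The 13 were 5 of 17 sterol enzymes, 4 of 8 fatty acid enzymes, 3 of 5 regulators and the sterol carrier Stard4. Every STAT3KO library lay below every WT library for 16 members, against 16.9% of all genes. The median difference of the members was -0.43 on the log2 scale, beside 0.09 over all genes. In a bulk sample, fewer cells of a type and less RNA per cell cannot be told apart.

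TLR9KO libraries held less transcript of 3 of the 31 members than WT (Acaca, Fasn and Scap) and more of none, against 10.6% of all genes lower and 20.0% higher. In either direction 9.68% of the members passed, against 30.6% of all genes. The members' share that was lower was near the background, and their share that was higher, 0, was under it. The groups did not overlap, with TLR9KO lower, for 2 members, against 13.3% of all genes. None of the 17 sterol enzymes passed in limma, and 1 (Sc5d, higher) had an unadjusted p under 0.05. The count of members under that unadjusted p was 5 lower and 3 higher (25.8%, against 42.4% of all genes). The members' median difference was -0.01, beside 0.04 over all genes. The directly tested difference between the knockouts left 9 of the 31 members lower in STAT3KO than in TLR9KO and none higher, against 9.46% and 13.4% of all genes. At an unadjusted p under 0.05, 14 members (45.2%) were lower and 0 higher in STAT3KO than in TLR9KO, where 37% of all genes were under that p in either direction. STAT3KO against WT had the same counts of members, where 51.6% of all genes were under it. STAT3KO lay wholly below TLR9KO for 6 members, against 10.6% of all genes, and the members' median difference was -0.40, beside 0.06. The comparisons of STAT3KO and TLR9KO with WT share the WT libraries.

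**Figure D1:**
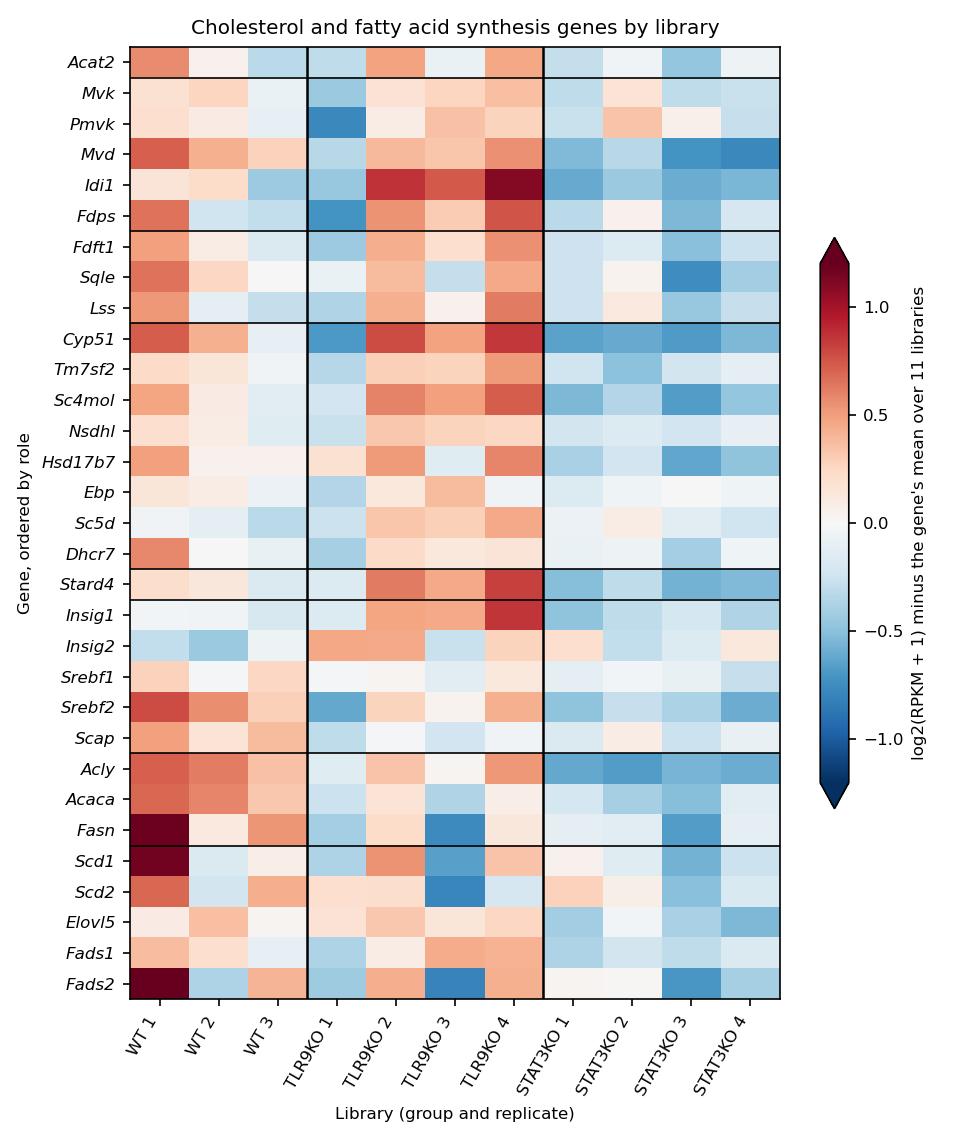
Log2(RPKM + 1) of each tested member, centred on its mean over the 11 libraries, with libraries in columns by group and members in rows by role. The STAT3KO columns are mostly below the member's mean, TLR9KO replicate 1 is below it for most sterol enzymes, and WT replicate 1 is above it.

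Acly, the enzyme that cleaves citrate to give cytosolic acetyl-CoA for both routes, was the most abundant member. It was measured at 140.4, 131 and 109 RPKM in WT, at 76.9, 108, 87.2 and 123 in TLR9KO and at 55.1, 53.3, 57.7 and 56.1 in STAT3KO. All 4 STAT3KO values lay below all other values, while WT and TLR9KO overlapped. Acly was lower in STAT3KO than in WT by a log2 difference of -1.17 ± 0.15 (SE; adjusted p = 0.000169) and than in TLR9KO by -0.79 ± 0.14 (adjusted p = 0.00300), while the difference between TLR9KO and WT was -0.37 ± 0.15 (adjusted p = 0.0767). Both Acly calls held in all 20 other settings of the processing that were set out for them.

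Acaca, acetyl-CoA carboxylase 1, makes malonyl-CoA, and Fasn, fatty acid synthase, joins it into palmitate. Acaca was measured at 7.59, 7.01 and 5.69 RPKM in WT, at 3.47, 4.99, 3.14 and 4.64 in TLR9KO and at 3.62, 3.05, 2.75 and 3.89 in STAT3KO. Both knockouts lay below WT without overlap and overlapped one another. Acaca was lower than in WT by -0.84 ± 0.15 in STAT3KO (adjusted p = 0.00128) and by -0.63 ± 0.15 in TLR9KO (adjusted p = 0.0102), and the difference between the knockouts was -0.22 ± 0.14 (adjusted p = 0.285). After correction for GC content and length the difference between TLR9KO and WT was -0.39 (adjusted p = 0.0853). Fasn was measured at 34.9, 16.2 and 22.0 RPKM in WT, at 11.0, 17.5, 8.38 and 16.4 in TLR9KO and at 13.8, 13.5, 8.99 and 13.8 in STAT3KO. STAT3KO lay below WT, and TLR9KO overlapped WT by 2 libraries above the lowest WT value. Fasn was lower than in WT by -0.86 ± 0.28 in STAT3KO (adjusted p = 0.0282) and by -0.81 ± 0.28 in TLR9KO (adjusted p = 0.0488), and both calls were lost with the GC and length correction, at -0.36 (adjusted p = 0.290) and -0.28 (adjusted p = 0.495).

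Among the desaturases and elongases, Elovl5, which lengthens polyunsaturated fatty acids, was the 1 that passed. It was measured at 23.0, 27.9 and 21.9 RPKM in WT, at 24.3, 27.1, 23.9 and 25.6 in TLR9KO and at 15.7, 20.9, 16.2 and 14.4 in STAT3KO. STAT3KO lay below every WT and TLR9KO library. The difference was -0.51 ± 0.12 against WT (adjusted p = 0.00655) and -0.57 ± 0.11 against TLR9KO (adjusted p = 0.00620), and it was 0.06 ± 0.12 between TLR9KO and WT (adjusted p = 0.744). Fads1, a desaturase of long polyunsaturated fatty acids, also lay lower in every STAT3KO library (17.0 to 19.7 RPKM) than in WT (20.7 to 29.1), with a difference of -0.42 ± 0.18 that did not pass (adjusted p = 0.0823).

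Scd1 and Scd2, which desaturate saturated fatty acyl chains, and Fads2, which desaturates polyunsaturated ones, did not pass in any comparison. Scd2 was the second most abundant member, at 38.1 to 107 RPKM over the 11 libraries, and Scd1 lay at 1.12 to 6.43 RPKM. The related genes Scd3 and Scd4 were at or below 0.11 RPKM. Within each of the 3 groups, the libraries lowest and highest in Fasn, Scd1, Scd2 and Fads2 were also lowest and highest in summed pigment-cell markers. That coincidence was seen for 1.78% of genes. It was looked for with every marker list used here, and otherwise only Acat2 met it, with the proliferation genes (0.891% of genes). Some highest values were near ties, as for Fasn in STAT3KO (13.77 and 13.75 RPKM) and Fads2 in TLR9KO (8.29 and 8.25). Libraries in between did not always keep the order. STAT3KO replicate 4 was above replicate 2 in these markers (1157 and 834 RPKM) and below it for Scd1, Scd2 and Fads2. All 5 pigment-cell markers (Pmel, Tyr, Tyrp1, Dct and Mlana) were present, at summed levels of 423 to 1368 RPKM in WT, 462 to 1337 in TLR9KO and 796 to 1225 in STAT3KO. Markers of adipocytes, which are rich in these enzymes, summed to 0.48 RPKM or less in every library, and Lep was at 0 throughout.

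**Figure D2:**
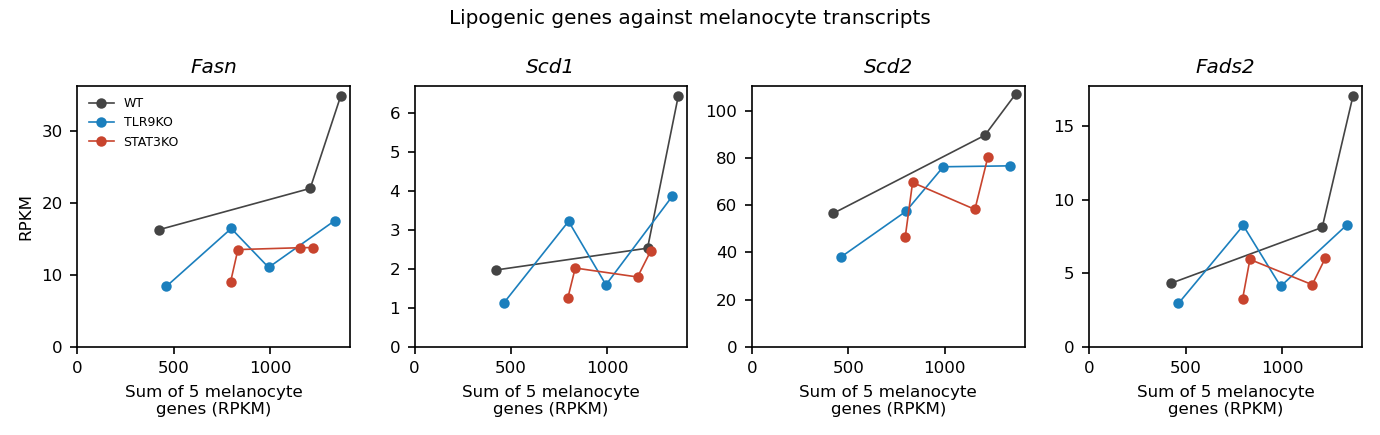
RPKM of Fasn, Scd1, Scd2 and Fads2 in each library against the summed RPKM of the 5 pigment-cell (melanocyte) markers, with points coloured by group and joined in order of that sum. Within each group the library lowest in pigment-cell markers is lowest for each of the 4 genes and the one highest in them is highest; the part of pigment cells in these values was not tested.

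In the mevalonate steps, Mvd, which decarboxylates mevalonate pyrophosphate, was measured at 25.7, 20.8 and 18.8 RPKM in WT, at 12.0, 20.3, 19.5 and 22.9 in TLR9KO and at 10.3, 12.0, 8.91 and 8.55 in STAT3KO. STAT3KO lay below WT, and its highest library equalled TLR9KO replicate 1. Mvd was lower in STAT3KO than in WT by -1.06 ± 0.20 (adjusted p = 0.00156) and than in TLR9KO by -0.82 ± 0.18 (adjusted p = 0.00984). Idi1, which interconverts the isoprenoid building blocks, was measured at 6.08, 6.4 and 3.69 RPKM in WT, at 3.64, 10.6, 9.62 and 12.6 in TLR9KO and at 3.19, 3.68, 3.20 and 3.35 in STAT3KO. STAT3KO lay below WT, and 3 of 4 TLR9KO libraries lay above it. Idi1 was lower in STAT3KO than in TLR9KO by -1.11 ± 0.29 (adjusted p = 0.0184), and the difference from WT did not pass (-0.53 ± 0.31, adjusted p = 0.191). The other kinases and synthases of this stage (Mvk, Pmvk and Fdps) and Acat2, a thiolase that makes acetoacetyl-CoA, did not pass in any comparison. Acat2 has a near-identical copy, Acat3, at 0.20 to 1.05 RPKM, so its reads can be split. Fdps shared 77.4% of its exon bases with another annotated gene on the same strand, Gm43738. That gene is not among the symbols measured, so whether reads of Fdps were split is not known.

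At the squalene stage 3 members were measured, and Sqle, squalene epoxidase, passed in 1 comparison. It was measured at 24.1, 18.0 and 14.9 RPKM in WT, at 14.1, 19.8, 12.1 and 20.9 in TLR9KO and at 12.5, 15.5, 8.53 and 11.0 in STAT3KO. The highest STAT3KO library overlapped the lowest WT library. Sqle was lower in STAT3KO than in WT by -0.64 ± 0.23 (adjusted p = 0.0407), and after the GC and length correction by -0.62, which did not pass (adjusted p = 0.0521). Fdft1, squalene synthase, and Lss, which closes the sterol rings, did not pass. Fdft1 shares 20.9% of its exon bases with the cathepsin gene Ctsb on the other strand, which was at 1294 to 2135 RPKM, and the strand setting of the authors' counting was not given in the sources used here.

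Of 8 enzymes that turn lanosterol into cholesterol, 3 passed: Cyp51, Sc4mol and Hsd17b7, which act in its demethylation, as does Nsdhl, which did not. Cyp51 was measured at 12.7, 10.1 and 6.72 RPKM in WT, at 4.13, 13.2, 10.6 and 13.9 in TLR9KO and at 4.30, 4.46, 4.19 and 4.71 in STAT3KO. Sc4mol was measured at 23.2, 17.8 and 15.0 RPKM in WT, at 13.9, 25.3, 23.5 and 28.0 in TLR9KO and at 11.0, 12.7, 9.95 and 11.7 in STAT3KO. Hsd17b7 was measured at 3.30, 2.17 and 2.18 RPKM in WT, at 2.47, 3.35, 1.77 and 3.59 in TLR9KO and at 1.34, 1.61, 0.99 and 1.19 in STAT3KO. For all 3, STAT3KO lay below WT without overlap, and for Sc4mol and Hsd17b7 it also lay below TLR9KO. Against WT the differences were -0.97 ± 0.32 for Cyp51 (adjusted p = 0.0309), -0.66 ± 0.21 for Sc4mol (adjusted p = 0.0270) and -0.63 ± 0.18 for Hsd17b7 (adjusted p = 0.0168). Against TLR9KO they were -0.97 ± 0.30 for Cyp51 (adjusted p = 0.0381), -0.90 ± 0.20 for Sc4mol (adjusted p = 0.00931) and -0.71 ± 0.17 for Hsd17b7 (adjusted p = 0.0133). After the GC and length correction the differences from TLR9KO were -0.89 for Cyp51 (adjusted p = 0.0646) and -0.57 for Hsd17b7 (adjusted p = 0.0517). The other enzymes of this stage (Tm7sf2, Nsdhl, Ebp, Sc5d and Dhcr7) did not pass in any comparison. The GC and length correction added Nsdhl as lower in STAT3KO than in WT (-0.41, adjusted p = 0.0290) and Tm7sf2 as lower in STAT3KO than in TLR9KO (-0.61, adjusted p = 0.0247). Tm7sf2, a sterol reductase, lay lower in every STAT3KO library (2.11 to 3.04 RPKM) than in WT (3.24 to 4.12), with a difference of -0.38 ± 0.18 (adjusted p = 0.109).

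Promoter sequence is shown for 3 sterol enzymes that were lower in STAT3KO than in both other groups and for Insig1, which was lower than in TLR9KO. Each is the RefSeq window from 250 bases before to 50 bases after the transcript start (GRCm38.p6), 5′ to 3′ on the strand of the gene. The windows are chr8:122443373-122443672 (minus strand) for Mvd, chr8:64733529-64733828 (minus) for Sc4mol, chr5:4104648-4104947 (minus) for Cyp51 and chr5:28071162-28071461 (plus) for Insig1. Capitals mark the box CCAAT or its reverse complement ATTGG, bound by the factor NF-Y, and in Insig1 also the E-box CACGTG.
Mvd: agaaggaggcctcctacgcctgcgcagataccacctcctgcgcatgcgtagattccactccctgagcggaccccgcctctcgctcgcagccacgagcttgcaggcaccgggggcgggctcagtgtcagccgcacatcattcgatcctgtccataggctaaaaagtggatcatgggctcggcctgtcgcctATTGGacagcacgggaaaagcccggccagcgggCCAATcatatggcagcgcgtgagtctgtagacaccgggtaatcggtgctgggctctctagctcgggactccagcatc
Sc4mol: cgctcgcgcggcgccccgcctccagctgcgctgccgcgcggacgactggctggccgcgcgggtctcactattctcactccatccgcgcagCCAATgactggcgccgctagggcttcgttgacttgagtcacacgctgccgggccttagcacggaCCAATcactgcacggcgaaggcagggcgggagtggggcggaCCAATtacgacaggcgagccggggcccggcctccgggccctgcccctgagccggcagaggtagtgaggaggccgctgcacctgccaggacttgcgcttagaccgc
Cyp51: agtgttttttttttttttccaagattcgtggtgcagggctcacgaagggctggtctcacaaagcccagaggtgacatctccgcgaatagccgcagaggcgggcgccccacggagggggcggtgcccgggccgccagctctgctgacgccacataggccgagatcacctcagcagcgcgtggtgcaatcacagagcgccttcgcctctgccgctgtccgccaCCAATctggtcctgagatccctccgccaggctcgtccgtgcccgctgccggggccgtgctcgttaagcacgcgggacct
Insig1: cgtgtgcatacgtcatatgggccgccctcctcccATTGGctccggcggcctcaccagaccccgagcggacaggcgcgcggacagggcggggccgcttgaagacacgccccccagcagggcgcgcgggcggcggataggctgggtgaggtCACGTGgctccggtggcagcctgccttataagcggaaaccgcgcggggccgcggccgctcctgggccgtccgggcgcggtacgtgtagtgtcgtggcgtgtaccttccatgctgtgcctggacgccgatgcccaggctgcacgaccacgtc
Mvd held CCAAT boxes 60 and 27 bases before the start, Sc4mol 160, 96 and 55 bases before it, and Cyp51 29 bases before it. Insig1 held a CCAAT box 216 and a CACGTG box 101 bases before the start. Searched on both strands, CCAAT was present in the window of 21 of the 26 members with a promoter entry (80.8%), beside 41.1% of 27025 genes and 42.8% of the 8391 tested genes with an entry. CACGTG was present in 6 of 26 (23.1%), beside 8.09% and 12.3%. The sterol element motif TCACNCCAC was present in 1 of 26 (3.85%), in Hmgcs1, beside 1.44% and 1.39%. A match is a description of the letters, not a binding site.

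Stard4, a carrier that moves cholesterol between membranes, was measured at 3.95, 3.69 and 2.79 RPKM in WT, at 2.81, 5.60, 4.87 and 6.55 in TLR9KO and at 1.99, 2.45, 1.89 and 1.95 in STAT3KO. STAT3KO lay below both other groups. The difference was -0.54 ± 0.20 against WT (adjusted p = 0.0470) and -0.92 ± 0.18 against TLR9KO (adjusted p = 0.00641), and after the GC and length correction the difference from WT was still -0.54 but did not pass (adjusted p = 0.0736).

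**Figure D3:**
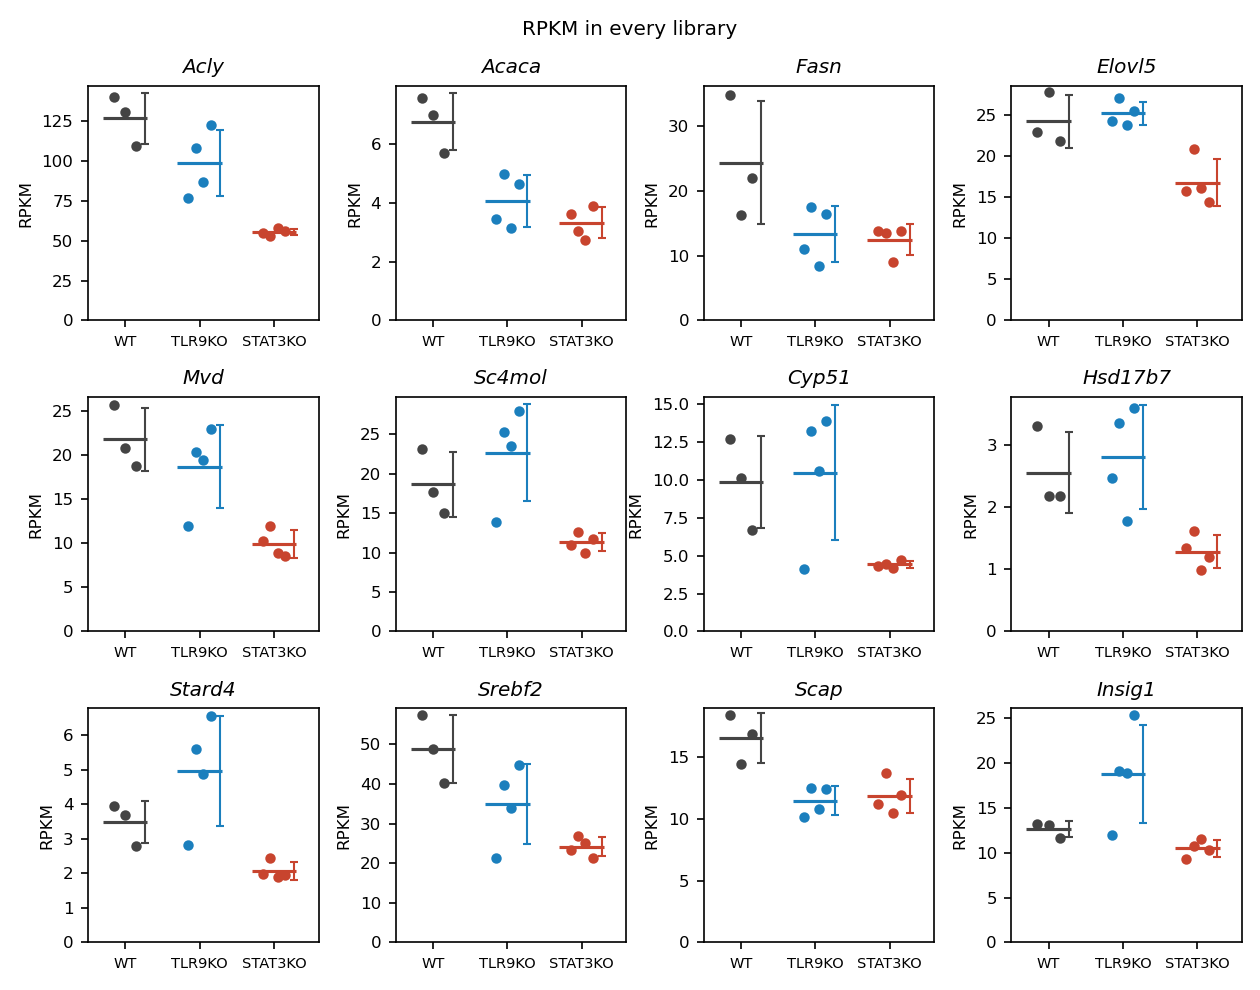
RPKM of 12 members described in the text, 1 point per library, by group, with the group mean as a line and its SD as an error bar. STAT3KO libraries lie below every WT library for Acly, Mvd and Cyp51, and TLR9KO replicate 1 is the low point of its group for Mvd, Sc4mol and Cyp51.

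Among the regulators, Srebf2, which encodes the SREBP that mainly drives sterol synthesis, was measured at 57.3, 48.8 and 40.3 RPKM in WT, at 21.2, 39.7, 33.9 and 44.7 in TLR9KO and at 23.3, 26.9, 25.1 and 21.4 in STAT3KO. All STAT3KO libraries lay below all WT libraries, and TLR9KO spanned both. Srebf2 was lower in STAT3KO than in WT by -0.97 ± 0.21 (adjusted p = 0.00391), a difference that came to -0.59 (adjusted p = 0.0577) after the GC and length correction. The difference between TLR9KO and WT was -0.51 ± 0.21 and did not pass (adjusted p = 0.0925). Srebf1, which encodes SREBP-1, was measured at 26.8, 21.8 and 26.3 RPKM in WT, at 21.6, 22.5, 19.9 and 24.1 in TLR9KO and at 20.3, 21.5, 20.6 and 18.0 in STAT3KO. STAT3KO lay just below WT, by -0.30 ± 0.10 (adjusted p = 0.0308), and the GC and length correction turned it to 0.05 (adjusted p = 0.542). Between TLR9KO and WT the Srebf1 difference was -0.17 ± 0.10 (adjusted p = 0.211). The same correction turned it to 0.22, which passed as higher (adjusted p = 0.0446).

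Scap, the SREBP escort, passed in both knockouts. It was measured at 18.4, 14.4 and 16.9 RPKM in WT, at 10.2, 12.5, 10.8 and 12.4 in TLR9KO and at 11.2, 13.7, 10.5 and 11.9 in STAT3KO. Both knockouts lay below WT, by -0.45 ± 0.11 in STAT3KO (adjusted p = 0.00831) and by -0.49 ± 0.11 in TLR9KO (adjusted p = 0.00816), and the difference between them was 0.04 ± 0.11 (adjusted p = 0.798). After the GC and length correction both were -0.09 (adjusted p = 0.467 and 0.547). Scap shares 18.6% of its exon bases with 5830462I19Rik on the other strand, which is not among the symbols measured. The strand setting of the authors' counting was not given.

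Insig1, an SREBP target whose protein retains SCAP, was measured at 13.2, 13.1 and 11.7 RPKM in WT, at 12.0, 19.2, 18.8 and 25.3 in TLR9KO and at 9.35, 10.7, 11.6 and 10.3 in STAT3KO. STAT3KO lay below both other groups, and 3 of 4 TLR9KO libraries lay above WT. Insig1 was lower in STAT3KO than in TLR9KO by -0.75 ± 0.17 (adjusted p = 0.0118), while its differences from WT did not pass (-0.25 ± 0.19, adjusted p = 0.30 in STAT3KO; 0.50 ± 0.19, adjusted p = 0.0649 in TLR9KO). Insig2, the second INSIG gene, was measured at 8.08, 7.20 and 9.74 RPKM in WT, at 14.4, 14.3, 8.31 and 12.4 in TLR9KO and at 11.9, 8.09, 8.99 and 11.2 in STAT3KO. The groups overlapped and no comparison passed (0.50 ± 0.19, adjusted p = 0.0646 between TLR9KO and WT).

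**Figure D4:**
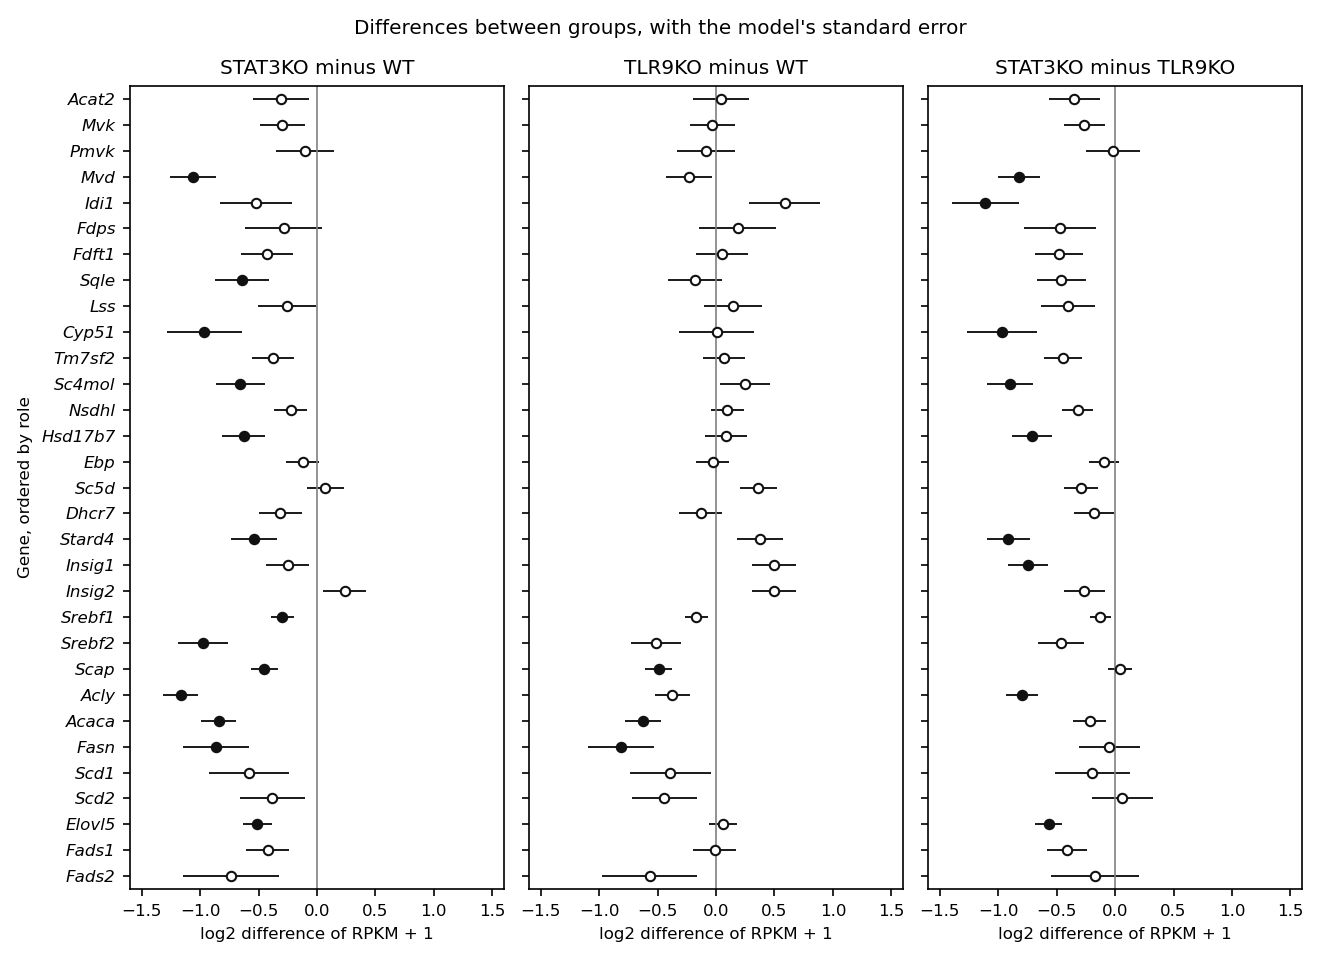
Log2 difference of each tested member with its standard error in the 3 comparisons, on log2(RPKM + 1), filled where the member passed the threshold. Members that passed all lie below 0: 13 for STAT3KO against WT, 3 for TLR9KO against WT and 9 for STAT3KO against TLR9KO.

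Within groups, the same libraries were the highest or the lowest for most sterol genes. Of the 17 sterol enzymes, WT replicate 1 was the highest WT library for 15 and WT replicate 3 the lowest for 16, while TLR9KO replicate 1 was the lowest TLR9KO library for 15 and TLR9KO replicate 4 the highest for 12. Over all genes tested, WT replicate 1 was highest for 32.3% and WT replicate 3 lowest for 34.7%. TLR9KO replicate 1 was lowest for 36.5% of all genes and TLR9KO replicate 4 highest for 13.2%. Among STAT3KO libraries, replicate 2 was highest for 12 of the 17 (26.6% of all genes) and replicate 3 lowest for 10 (29.3%). The mean log2(RPKM + 1) of the sterol enzymes was 3.65, 3.36 and 3.11 in WT, 2.88, 3.66, 3.48 and 3.75 in TLR9KO and 2.93, 3.12, 2.82 and 2.95 in STAT3KO. TLR9KO replicate 1 thus lay within the STAT3KO range, and the other 3 TLR9KO libraries lay above WT replicates 2 and 3.

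Without TLR9KO replicate 1, 7 members (22.6%) passed between TLR9KO and WT in place of 3, against 33% of all genes in the same fit. Of these, 5 were higher in TLR9KO: Idi1 (0.93, adjusted p = 0.00304), Insig1 (0.69, adjusted p = 0.00296), Sc5d (0.51, adjusted p = 0.00739), Stard4 (0.58, adjusted p = 0.00934) and Sc4mol (0.45, adjusted p = 0.0365). Acaca and Scap still passed as lower, and Fasn did not (adjusted p = 0.0874). Between STAT3KO and TLR9KO the count without that library was 17 (54.8%) in place of 9, all lower in STAT3KO, against 21.5% of all genes in either direction. Without WT replicate 1, 6 members (19.4%) passed between STAT3KO and WT in place of 13 (Acaca, Acly, Elovl5, Mvd, Scap and Srebf2), against 34.8% of all genes. In the same fit 1 member passed between TLR9KO and WT (Scap), against 18.8% of all genes. TLR9KO replicate 1 also stood apart in some marker levels. Its 6 fibroblast markers summed to 42.8 RPKM against 11.6 to 16.2 in the other TLR9KO libraries, and to 28.0 against 7.72 to 10.5 without the most abundant, Col1a1. Its 6 dendritic-cell markers summed to 81.6 RPKM against 114 to 155, a gap that was Itgax, since the other 5 summed to 15.5 against 13.9 to 25.6. Its neutrophil markers (7 of 8 found) summed to 249 RPKM against 68.0 to 104, of which Mmp8 made up 207, and the other 6 summed to 42.0 against 31.9 to 70.2. Its 4 endothelial markers summed to 18.3 RPKM against 7.64 to 11.5, and to 9.79 against 3.10 to 4.88 without the most abundant, Pecam1. The part of these in its low sterol values was not tested.

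**Figure D5:**
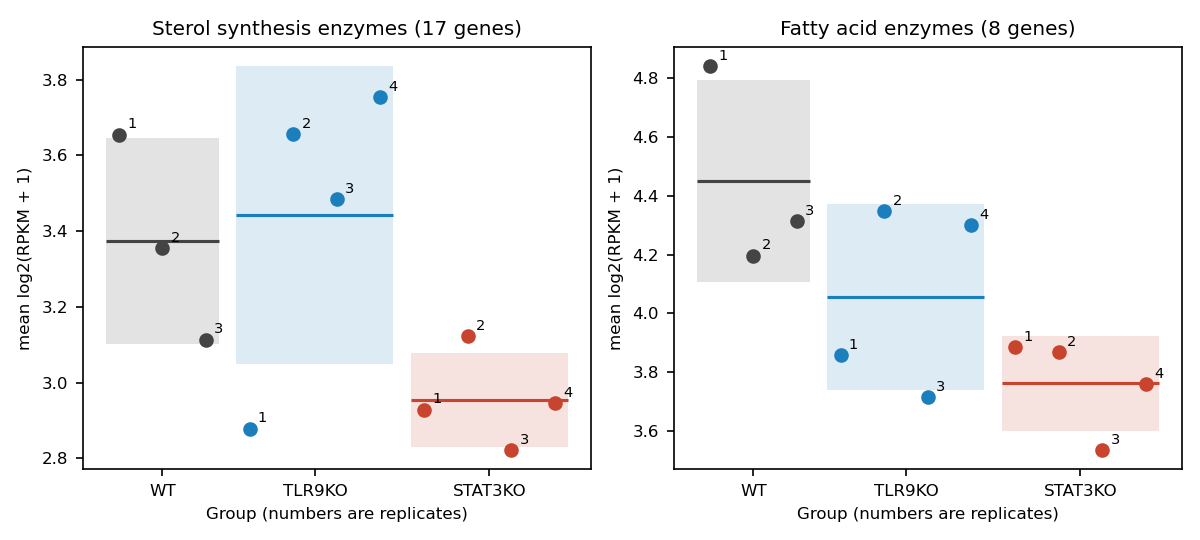
Mean log2(RPKM + 1) per library of the 17 sterol enzymes and the 8 fatty acid enzymes, with the group mean as a line and its SD as a band. Sterol enzymes in TLR9KO replicate 1 (2.88) lie among the STAT3KO libraries (2.82 to 3.12). The mean of all genes tested, which is not drawn, stays between 3.59 and 3.71.

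Against WT in STAT3KO, Mvd, Acly, Acaca and Elovl5 passed in all 20 other settings of the processing that were tried, single libraries left out included. The call of Hsd17b7 was lost in 1 of them, without WT replicate 1 (adjusted p = 0.0786), and those of Scap and Srebf2 in 2, both with the GC and length correction. Those of Sc4mol (5 settings), Fasn (6), Sqle (7), Srebf1 (7), Cyp51 (8) and Stard4 (10) were lost more often, each also without WT replicate 1, at adjusted p of 0.117 to 0.166. Other single libraries whose loss ended a call were WT replicate 2 (Sc4mol, Sqle, Cyp51 and Stard4), WT replicate 3 (Fasn and Srebf1), STAT3KO replicate 1 (Sc4mol, Sqle, Srebf1, Cyp51 and Stard4), STAT3KO replicate 2 (Cyp51), STAT3KO replicate 3 (Sc4mol, Fasn, Sqle, Cyp51 and Stard4), STAT3KO replicate 4 (Sqle, Srebf1, Cyp51 and Stard4) and, through the shared estimate of spread, TLR9KO replicates 2 and 3 (Stard4). Adjusted p was 0.0522 to 0.111 in these. Between STAT3KO and TLR9KO, Mvd, Sc4mol, Insig1, Stard4, Acly and Elovl5 passed in all 20. Idi1 was lost in 3, without TLR9KO replicate 2 (adjusted p = 0.0542) or TLR9KO replicate 4 (adjusted p = 0.0554). The third was the GC and length correction with the replicate block (adjusted p = 0.056). Hsd17b7 was lost in 2, both with that correction (adjusted p = 0.0517, and 0.0672 with the block). Cyp51 was lost in 11, including each STAT3KO library and TLR9KO replicates 2, 3 and 4. Between TLR9KO and WT, Fasn was lost in 13 settings (adjusted p up to 0.495), Acaca in 3 and Scap in 2.

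Markers of other cells differed between the groups as well. Dendritic-cell markers (6 of 6 found) summed to 140.5 to 223 RPKM in WT, 81.6 to 155 in TLR9KO and 30.1 to 69.9 in STAT3KO. That order was the order of Itgax, at means of 169, 103 and 37.4 RPKM, and the other 5 markers summed to 13.3 to 32.7, 13.9 to 25.6 and 8.29 to 34.6 RPKM, which overlap. Fibroblast markers (6 of 6) summed to 2.18 to 4.49 RPKM in WT, 11.6 to 42.8 in TLR9KO and 15.6 to 31.0 in STAT3KO. Proliferation genes (6 of 6) summed to 121 to 168, 145 to 184 and 202 to 291 RPKM in the same order, so that the STAT3KO libraries were highest. Pcna made most of that difference, at means of 77.4, 104 and 164 RPKM, and without it the sums were 51.6 to 89.0, 49.0 to 78.8 and 70.8 to 93.8, which overlap. Neutrophil markers reached 492 RPKM in STAT3KO replicate 2 and lay at 58.3 to 249 RPKM in all other libraries. Erythroid markers summed to 24.2 to 96.6 RPKM in WT, 0.34 to 1.69 in TLR9KO and 1.52 to 31.2 in STAT3KO. Endothelial markers summed to 9.58 to 25.9, 7.64 to 18.3 and 5.88 to 9.29 RPKM in the same order, with STAT3KO below WT. Pecam1 made most of that difference, at means of 11.19, 6.475 and 3.645 RPKM. The other 3 endothelial markers summed to 4.01 to 7.20, 3.10 to 9.79 and 3.14 to 4.59 RPKM, which overlap. T and NK cell markers summed to at most 12.0 RPKM in any library. The part of these in the lower sterol and fatty acid genes of STAT3KO was not tested.

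Other lipid genes, given as log2 differences ± SE for those that passed over all genes tested, moved in both directions. Their values after the GC and length correction are not given. With that correction all 3 member calls between TLR9KO and WT were lost, and calls over all genes there fell from 3229 to 1708. The shares of all genes to set beside the counts are 29.2% higher and 14.8% lower for STAT3KO against WT, 20.0% and 10.6% for TLR9KO against WT, and 13.4% and 9.46% for STAT3KO against TLR9KO. Among 13 tested genes of further lipid synthesis, 1 was higher and 3 were lower in STAT3KO than in WT, the same counts held between TLR9KO and WT, and 1 was higher between STAT3KO and TLR9KO. Ggps1, which makes geranylgeranyl pyrophosphate, was higher than in WT in STAT3KO (0.55 ± 0.11) and in TLR9KO (0.57 ± 0.11). The sterol-responsive Tmem97 was lower in STAT3KO (-0.52 ± 0.15), and the phosphatidate phosphatase Lpin1 was lower than in WT in STAT3KO (-0.38 ± 0.13) and in TLR9KO (-0.40 ± 0.13). Mbtps1, the protease that first cuts SREBPs, was lower than in WT in STAT3KO (-0.29 ± 0.10) and in TLR9KO (-0.37 ± 0.10). Agpat2, an acyltransferase of glycerolipid synthesis, was lower in TLR9KO than in WT (-0.43 ± 0.08) and higher in STAT3KO than in TLR9KO (0.30 ± 0.08).

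Of 11 genes of the liver X receptor and efflux list, 4 were higher and 3 lower in STAT3KO than in WT, 1 higher and 1 lower in TLR9KO than in WT, and 3 higher and 1 lower between STAT3KO and TLR9KO. Apoe, the apolipoprotein that carries cholesterol away from macrophages, had a mean of 636 RPKM in WT, 915 in TLR9KO and 3127 in STAT3KO. It was higher in STAT3KO than in WT (2.28 ± 0.24) and than in TLR9KO (1.73 ± 0.23). Apoc2, a cofactor of lipoprotein lipase, was higher by 1.67 ± 0.23 and 1.75 ± 0.21 in the same comparisons. Lpcat3, which remodels phospholipids, was lower than in WT in STAT3KO (-0.45 ± 0.08) and in TLR9KO (-0.35 ± 0.08). Cyp27a1, a sterol hydroxylase, was higher than in WT in STAT3KO (0.93 ± 0.24) and in TLR9KO (0.80 ± 0.24). Ch25h, which makes 25-hydroxycholesterol, was lower in STAT3KO than in WT (-0.94 ± 0.28) and than in TLR9KO (-1.69 ± 0.26).

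Of 8 tested uptake and lysosomal genes, 2 were higher and 3 lower in STAT3KO than in WT, 1 higher and 2 lower in TLR9KO than in WT, and 2 higher and 1 lower between STAT3KO and TLR9KO. The scavenger receptor Msr1 was higher than in WT in STAT3KO (1.38 ± 0.12) and in TLR9KO (1.08 ± 0.12). Cd36, which takes up oxidised lipoprotein and fatty acids, was higher in STAT3KO than in WT (1.47 ± 0.32) and than in TLR9KO (1.61 ± 0.30). Olr1, another receptor for oxidised lipoprotein, was lower in STAT3KO than in WT (-1.24 ± 0.21) and than in TLR9KO (-1.08 ± 0.19). Lipa, the lysosomal acid lipase, was higher in STAT3KO than in TLR9KO (0.56 ± 0.14). The receptor Lrp1 was lower than in WT in STAT3KO (-0.47 ± 0.17) and in TLR9KO (-0.70 ± 0.17), and so was the lysosomal cholesterol exporter Npc1 (-0.53 ± 0.17 and -0.66 ± 0.17).

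Of 9 esterification and storage genes, 4 were lower in STAT3KO than in WT, 3 were lower in TLR9KO than in WT, and 1 was higher between STAT3KO and TLR9KO. Dgat1 and Dgat2, which make triglyceride, were lower than in WT in STAT3KO (-0.77 ± 0.14 and -0.72 ± 0.16) and in TLR9KO (-0.51 ± 0.14 and -0.60 ± 0.16). Soat1, which esterifies cholesterol, was lower in STAT3KO than in WT (-0.37 ± 0.12), and the lipid-droplet protein Plin3 was lower than in WT in STAT3KO (-0.30 ± 0.11) and in TLR9KO (-0.40 ± 0.11). Plin2, another coat protein of lipid droplets, was higher in STAT3KO than in TLR9KO (0.92 ± 0.23).

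Of 15 tested fatty acid oxidation genes, 5 were higher and 1 lower in STAT3KO than in WT, 2 higher and 4 lower in TLR9KO than in WT, and 3 higher between STAT3KO and TLR9KO. Pparg, a nuclear receptor for fatty acids, was higher in STAT3KO than in WT (1.01 ± 0.18) and than in TLR9KO (1.01 ± 0.17). Etfdh, which passes electrons from oxidation to the respiratory chain, was higher by 0.55 ± 0.09 and 0.29 ± 0.09 in the same comparisons. The acyl-CoA dehydrogenases Acadl (0.39 ± 0.08 and 0.32 ± 0.08) and Acadm (0.25 ± 0.09 and 0.41 ± 0.09) were higher than in WT in STAT3KO and in TLR9KO, and Acads was lower in both (-0.31 ± 0.10 and -0.51 ± 0.10). The thiolase Acaa2 was lower in TLR9KO than in WT (-0.37 ± 0.08) and higher in STAT3KO than in TLR9KO (0.37 ± 0.07).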

How the data were processed

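RNA of 11 libraries was sequenced, and the authors deposited 1 table of RPKM per gene symbol for each library; the unit is named per the file headers in 10 tables and taken to be the same in the table of TLR9KO replicate 4. CASAVA 1.7, TopHat 1.3.1, Bowtie 0.12.7, Partek and the mm9 build are named per the submitters' processing notes. The strand setting is not given in the sources used here.

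RPKM values are not counts, so no count test was run. The 10557 genes averaging 1 RPKM or more across the libraries were tested on log2(RPKM + 1) with limma 3.58.1 in R 4.3.3, with 1 mean per group, a variance trend and no further scaling. Benjamini-Hochberg adjustment of the two-sided p-values covered all genes tested, with a threshold of 0.05. The pseudocount of 1 understates changes of low genes. Depth was estimated from the steps between microRNA gene values deposited by the authors. At the depth taken, 77.3 to 97.1% of these values were whole reads to within 0.15, and the median share over all depths tried was 14.7 to 25.0%. Settings tried were another pseudocount, no filter, median-ratio scaling, no trend, array weights, a replicate block, a GC and length correction, only the groups compared, and leaving out each library. The fit was tested on simulated data.

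The members and lists were chosen with earlier results of these data known. Every library's value is printed for members past the threshold by at least 0.5 on the log2 scale and for the 5 regulators, and for the other lipid lists up to 3 genes with the smallest p are named.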

Additional observations from a re-analysis of the deposited data

Results flagged for a closer look

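In 4 of 72 groups of 4 libraries, 1 library lay farther from its group than Dixon's 95% critical value allows; chance flags about 1 in 20 groups. Nsdhl, a late sterol enzyme, was at 6.68 RPKM in TLR9KO replicate 1, against 10.0 to 10.6 in the other TLR9KO libraries. Mvk, mevalonate kinase, was at 9.51 RPKM in STAT3KO replicate 2, against 6.59 to 6.79. Dhcr7, which makes cholesterol from its last precursor, was at 10.02 RPKM in STAT3KO replicate 3, against 12.8 to 13.1. Fasn was at 8.99 RPKM in the same library, against 13.5 to 13.8.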

How the results depend on the processing

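Between STAT3KO and WT, 13 members passed (41.9%, against 44% of all genes in the same fit). With no filter 8 passed (25.8%, against 27.2%), and with the GC and length correction 8 (25.8%, against 41%). With that correction and the replicate block 8 passed (25.8%, against 36.5%). With 1 library left out, 6 (19.4%, against 34.8%) to 17 (54.8%, against 46.2%) passed. Between TLR9KO and WT, 3 passed (9.68%, against 30.6%). With array weights 8 passed, 5 of them higher (25.8%, against 42.7%). With the GC and length correction 1 passed, Srebf1 as higher (3.23%, against 16.4%), and with the correction and the block 0 (against 10.9%). With 1 library left out, 1 (3.23%, against 18.8%) to 7 (22.6%, against 33%) passed. With WT replicate 1 and TLR9KO replicate 1 both left out, an alternative chosen after seeing the data, 7 passed (22.6%, against 20.6%). Between STAT3KO and TLR9KO, 9 passed (29%, against 22.8%), and with array weights 20 (64.5%, against 36.1%). With 1 library left out, 7 (22.6%, against 15% without TLR9KO replicate 4) to 17 (54.8%, against 21.5%) passed. With the same pair left out, 17 passed (54.8%, against 19.5%). The mean difference over the tested members ranged from -0.57 to -0.34, from -0.15 to 0.08 and from -0.56 to -0.33 with 1 library left out; with the pair left out it was 0.22 between TLR9KO and WT. Srebf1 reversed with the GC and length correction, to 0.054 against WT in STAT3KO (0.066 with the block) and to 0.22 in TLR9KO, where it passed (adjusted p = 0.0446). The cause was not tested. Calls that held in all 20 planned settings were 4 between STAT3KO and WT (Mvd, Acly, Acaca and Elovl5), 6 between STAT3KO and TLR9KO (Mvd, Sc4mol, Insig1, Stard4, Acly and Elovl5) and 0 between TLR9KO and WT. Over all genes, 3229 passed between TLR9KO and WT, against 1989 without WT replicate 1 and 1708 with the GC and length correction; 2409 passed between STAT3KO and TLR9KO, against 3807 with array weights.

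The replicate numbers were not shown to pair the samples, since deviations of same-numbered libraries correlated between -0.291 and 0.492. With the replicate block 12, 3 and 8 members passed in the 3 comparisons, without Srebf1 against WT and Cyp51 between the knockouts. These were 38.7%, 9.68% and 25.8% of the members, against 38.6%, 25.2% and 17.8% of all genes. At 60 reads or more per RPKM in a 2 kb transcript, counting error is small for most members, and the number of libraries limits the precision.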
